A study of Mus musculus with 20 samples.

Results

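The genes described here act on collagen after its chains have been made. They are 10 of the 51789 genes in the deposited table, chosen by symbol: the prolyl hydroxylases P4ha1, P4ha2 and P4ha3, the lysyl hydroxylases Plod1, Plod2 and Plod3, the collagen chaperone Serpinh1, the propeptidase enhancer Pcolce, and the cross-linking oxidases Loxl2 and Loxl3. RNA came from the intervertebral discs of 24-month-old BL6 mice of a sex the labels do not give. From 18 months of age and for 6 months the animals had intraperitoneal injections of DMSO alone (vehicle) or of MDL-800 dissolved in DMSO, so every library, control libraries included, came from an animal that had received DMSO. MDL-800 is a small-molecule activator of SIRT6, a chromatin deacylase named in the study's title. The 20 libraries form 4 groups of 5: vehicle and MDL-800 nucleus pulposus (NP, the soft disc centre) and vehicle and MDL-800 annulus fibrosus (AF, the outer lamellar ring), and a library is named here by its group and the number in its title. The labels call the material both tissue and primary cells, and do not say whether libraries of a group are separate animals.

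Collagen chains are hydroxylated on proline and lysine residues inside the endoplasmic reticulum before they fold. Prolyl hydroxylation by the P4ha catalytic subunits, each paired with the disulfide isomerase P4hb, makes the triple helix stable at body temperature, and lysyl hydroxylation by the Plod enzymes prepares sites for sugars and cross-links. SERPINH1, also called HSP47, binds the folded helix and escorts it out of the endoplasmic reticulum. Outside the cell PCOLCE speeds removal of the C-terminal propeptide by BMP1, and lysyl oxidases such as LOXL2 and LOXL3 oxidise lysines so that fibres can cross-link. The NP is a low-oxygen tissue rich in proteoglycan with cells of notochordal origin, whereas the AF is a lamellar tissue built largely of collagen I fibres, and the oxygen-dependent hydroxylases P4ha1, P4ha2 and Plod2 are textbook targets of hypoxia-inducible factors.

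The sequences just before the start of 4 members are shown so that the 3 P4ha genes, of which P4ha1 and P4ha3 were called higher in NP and P4ha2 was not called, can be read side by side with Serpinh1, the member with the largest excess in AF. Each is the 250 bases ending at the base before the RefSeq start on GRCm38.p6, 5′ to 3′ on the gene's strand, and capitals mark ACGTG, the core letters of a hypoxia response element, or its reverse complement. The P4ha1 window is chr10:59323046-59323295, that of P4ha2 is chr11:54100674-54100923 and that of P4ha3 is chr7:100285270-100285519, all on the plus strand. That of Serpinh1 is chr7:99353240-99353489 on the minus strand. In GENCODE M21, the annotation used for gene coordinates below, P4ha2 starts earlier, at chr11:54100095. Its window therefore lies inside the gene of that annotation.
P4ha1: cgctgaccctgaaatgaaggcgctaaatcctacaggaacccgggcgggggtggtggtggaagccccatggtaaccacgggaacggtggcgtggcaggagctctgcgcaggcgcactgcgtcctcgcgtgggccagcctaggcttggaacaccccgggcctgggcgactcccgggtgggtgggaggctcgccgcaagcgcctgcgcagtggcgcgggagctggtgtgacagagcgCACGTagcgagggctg
P4ha2: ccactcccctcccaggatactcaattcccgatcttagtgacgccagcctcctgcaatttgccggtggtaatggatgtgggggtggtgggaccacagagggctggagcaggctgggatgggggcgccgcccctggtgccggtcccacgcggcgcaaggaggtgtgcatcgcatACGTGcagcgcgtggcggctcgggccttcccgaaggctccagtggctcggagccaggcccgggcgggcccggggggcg
P4ha3: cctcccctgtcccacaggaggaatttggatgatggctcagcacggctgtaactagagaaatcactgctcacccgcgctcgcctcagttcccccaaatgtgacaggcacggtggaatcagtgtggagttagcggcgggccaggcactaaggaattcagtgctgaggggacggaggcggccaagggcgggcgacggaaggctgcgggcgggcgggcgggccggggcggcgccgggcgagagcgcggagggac
Serpinh1: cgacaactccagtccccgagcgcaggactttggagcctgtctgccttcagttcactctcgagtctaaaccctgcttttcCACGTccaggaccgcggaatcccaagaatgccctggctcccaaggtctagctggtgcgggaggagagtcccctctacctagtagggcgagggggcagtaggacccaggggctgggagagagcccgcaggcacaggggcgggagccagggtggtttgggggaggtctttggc

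Of the 10 members, 7 had an entry in the RefSeq promoter table (P4ha1, P4ha2, P4ha3, Plod1, Plod3, Serpinh1 and Pcolce). The Pcolce window, chr5:137611405-137611654 on the minus strand, also lies inside its GENCODE M21 gene. ACGTG on either strand was present in 4 of these 7 windows, against 16.6% of the 32817 windows of the same length in the table. Counted back from the start, its first base lay at -16 in P4ha1, -78 in P4ha2, -54 in Plod3 and -171 in Serpinh1. The P4ha3 window held no ACGTG, which says only that these letters were not within it. The letters of a GC box, GGGCGG, were found on either strand in 6 of the 7 windows and in 32.7% of all windows, with 5 matches in P4ha3, some of them overlapping. CACGTG, which contains ACGTG, was in none of the 7. The 7 windows were 55.6% to 70% G or C. The windows of the whole table were not matched to them for that content, so the shares are not a test of enrichment. These matches are descriptions of the letters and not of binding.

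Depth is not given with the values, and estimates from the steps between low values ranged from 12.8 M to 22.2 M fragments per library (M, the prefix mega). The smallest estimate of fragments behind a member was about 400.2, for P4ha3 in AF MDL-800 library 27. All 10 members passed the filter of at least 1 FPKM (fragments per kilobase, relative to the size of the library) in at least 5 libraries and were tested among 16383 genes. Values below are FPKM rescaled between libraries, and log2 differences are on log2(scaled FPKM + 1). Because each library is bulk RNA, from tissue or from primary cells, fewer cells of a type and less RNA per cell cannot be told apart in any value below. The tissue labels were checked against marker lists: 6 of 9 NP markers, led by T, Krt8, Krt19 and Car3, were higher in NP. The other 3 (Car12, Foxf1, Pax1) averaged under 1 in NP and were called lower there than in AF under both treatments. In vehicle NP and vehicle AF they averaged 0.047 and 1.17 (Car12), 0.20 and 5.70 (Foxf1) and 0.73 and 29.5 (Pax1). Of 8 AF markers, 7 were lower in vehicle NP and 6 in MDL-800 NP, Fmod being the AF marker that was not lower in either.

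In vehicle discs the NP held more mRNA of P4ha3, P4ha1 and Loxl2 than the AF, and less of Serpinh1, Plod1 and Pcolce. That made 3 members higher and 3 lower out of 10 at an adjusted p under 0.05 (limma, Benjamini-Hochberg over all genes), where 21.8% of all genes tested were higher, 33.9% were lower and 55.7% passed in either direction. The members' share is therefore close to the background of these very different tissues, and what follows describes which enzymes lay on which side. The median difference of the 10 members was -0.091, and that of all genes was -0.083. Quantile normalization moved the median of all genes to 0.20 and the split of calls from 3577 higher and 5550 lower to 6474 higher and 3925 lower, while the same 6 members were called in the same directions. Values of the 2 groups did not overlap for 5 members, against 41% of all genes.

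**Figure D1:**
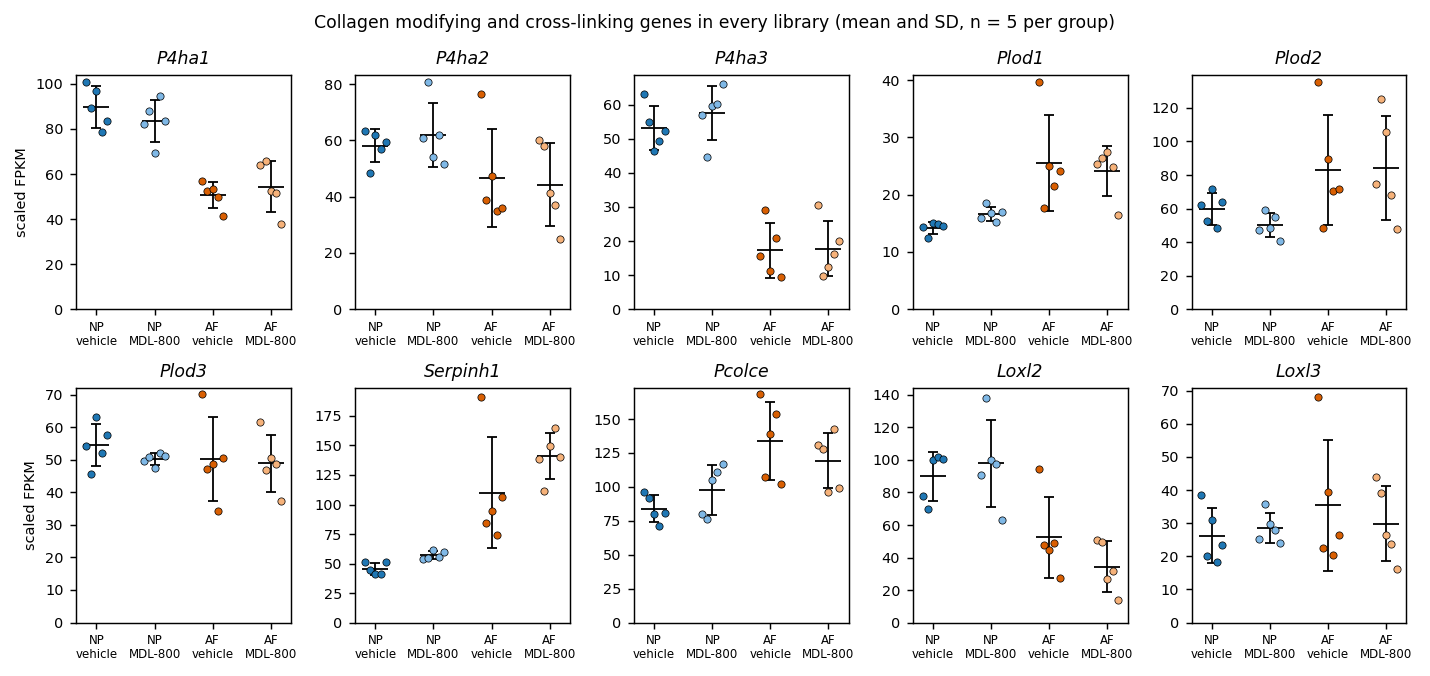
Scaled FPKM of the 10 genes on the vertical axis, with a panel for each gene and the 4 groups on the horizontal axis. Points are libraries, horizontal bars are means and whiskers are SD (n = 5). P4ha1 and P4ha3 in NP lie above every AF library of the same treatment, Serpinh1 lies below, and AF vehicle library 8 is the highest point of its group in 9 panels.

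Among the prolyl hydroxylases, P4ha3 (chr7:100285520-100319699, mm10) showed the largest difference between tissues. Vehicle libraries 1, 2, 3, 5 and 6 from the NP held 63.1, 54.8, 46.5, 49.2 and 52.3 scaled FPKM of it, and vehicle libraries 8, 9, 10, 12 and 13 from the AF held 15.5, 29.2, 11.1, 21.0 and 9.58. Every NP library lay above every AF library, and the AF libraries spread far more widely in proportion. The NP mean was 53.2 ± 6.35 and the AF mean 17.3 ± 8.01 (SD, n = 5 each), a log2 difference of 1.67 (SE 0.26, limma adjusted p = 0.000278) or 3.18-fold. With MDL-800, NP libraries 15, 18, 19, 20 and 22 held 56.9, 44.8, 59.7, 60.3 and 66.0, and AF libraries 25, 27, 28, 29 and 30 held 30.5, 9.65, 12.3, 16.3 and 20.1. Again no AF library reached the lowest NP library, and the log2 difference was 1.73 (SE 0.25, adjusted p = 0.000158).

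The NP marker list was read in the AF libraries with the most P4ha3, a reading chosen after the values were seen. AF vehicle library 9 and AF MDL-800 library 25 were the highest of their groups for P4ha3 and for 5 of the 9 NP markers, T (624 and 446), Krt8 (394 and 363), Krt18 (110 and 105), Krt19 (725 and 545) and Cdh2 (83.1 and 87.4). Car3 was highest in library 9 (10912) but not in library 25 (4529, with 4646 in library 30). The other 3 markers, which averaged under 1 in NP, were highest in neither library: Pax1 (14.5) and Foxf1 (4.08) were lowest of their group in library 9, and Car12 (1.54) was lowest of its group in library 25. The summed scaled FPKM of the 9 NP markers ran from 1877 to 12867 in AF vehicle and from 2592 to 6113 in AF MDL-800, against 22277 to 27179 in vehicle NP and 25013 to 29519 in MDL-800 NP. Car3 alone made up most of that sum in every library, as with 10912 of 12867 in AF vehicle library 9, so the sum mainly follows that gene. The part of NP transcripts in the AF level of P4ha3 was not tested. When libraries were left out singly, the vehicle difference of P4ha3 kept an adjusted p between 5.42e-05 and 0.00107.

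P4ha1 (chr10:59323296-59373304), the most widely used catalytic subunit of prolyl 4-hydroxylase, had 101, 89.4, 96.8, 78.6 and 83.4 scaled FPKM in the same vehicle NP libraries. The AF vehicle libraries 8, 9, 10, 12 and 13 had 56.7, 52.6, 53.6, 49.9 and 41.5. The lowest NP library exceeded the highest AF library, and both groups were tight. The means were 89.9 ± 9.22 (SD, n = 5) and 50.8 ± 5.78 (SD, n = 5), for a log2 difference of 0.81 (SE 0.11, limma adjusted p = 0.000118). With MDL-800 the NP range was 69.4 to 94.5 and the AF range 37.6 to 65.9, still without overlap, and the log2 difference was 0.63 (SE 0.15, adjusted p = 0.00367).

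P4ha2, the second widely expressed catalytic subunit, did not pass the test between tissues. NP vehicle values were 63.4, 48.5, 62.1, 56.9 and 59.4 and AF vehicle values were 76.6, 38.7, 47.3, 34.9 and 36.1. AF library 8 was above all NP libraries while the other 4 AF libraries were below the whole NP group. The log2 difference was 0.36 (SE 0.20, limma adjusted p = 0.140), and without AF vehicle library 8 it was 0.56 with adjusted p = 0.00349. In MDL-800 discs it was 0.52 (adjusted p = 0.0634), and it passed there without AF library 25 (0.65, adjusted p = 0.0269) or without AF library 27 (0.64, adjusted p = 0.0307).

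The make-up of the prolyl hydroxylase mRNA is given as a description, without a test. The summed level of the 3 subunits was 201 ± 16.5 (SD, n = 5) scaled FPKM in NP vehicle and 115 ± 22.6 (SD, n = 5) in AF vehicle. P4ha3 made up 26.5% ± 2.25 (SD, n = 5) of that sum in NP vehicle, with a range of 22.6% to 28.5%, and 15.1% ± 6.55 (SD, n = 5) in AF vehicle, with a range of 9.91% to 24.2%. The ranges met only through AF library 9. P4ha1 made up nearly the same share in both, at 44.7% ± 2.07 and 44.9% ± 4.14 (SD, n = 5 each), and P4ha2 made up 28.9% ± 2.38 in NP and 40.1% ± 7.89 in AF (SD, n = 5 each).

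None of the lysyl hydroxylases was called higher in NP. Plod1 (chr4:147909753-147936767), the lysyl hydroxylase of helical sites, held 14.4, 12.4, 15.0, 14.8 and 14.6 in the vehicle libraries of the NP and 39.6, 17.6, 25.0, 21.5 and 24.1 in those of the AF. All NP values were below all AF values, and AF library 8 was the highest. The log2 difference was -0.75 (SE 0.18, limma adjusted p = 0.00425) in vehicle and -0.49 (SE 0.13, adjusted p = 0.00734) in MDL-800, where AF library 30 at 16.5 fell inside the NP range of 15.2 to 18.6.

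Plod2, the lysyl hydroxylase of the telopeptides, had 62.4, 52.5, 71.6, 48.3 and 64.0 in NP vehicle and 135, 48.4, 89.4, 70.4 and 71.8 in AF vehicle. The groups overlapped through AF libraries 9 and 12, and the log2 difference of -0.40 (SE 0.23, limma adjusted p = 0.169) did not pass, although without AF library 9 it was -0.57 with adjusted p = 0.0344. In MDL-800 discs the NP held 40.8 to 59.3 and the AF 47.6 to 126, and the log2 difference was -0.67 (SE 0.23, adjusted p = 0.0266). That call was lost when NP library 15, 19 or 22 or AF library 27 or 28 was left out, with adjusted p between 0.0517 and 0.0656. Plod3, which also carries glycosyltransferase activity, did not pass in either treatment, at 54.5 ± 6.47 against 50.2 ± 12.9 in vehicle and 50.3 ± 1.74 against 48.9 ± 8.71 in MDL-800 (NP against AF, SD, n = 5 each). Its exons overlap Znhit1 on the opposite strand over 529 nucleotides, and whether the counting used strand is not given in the sources used here.

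The make-up of the lysyl hydroxylase mRNA is described in the same way. In NP vehicle Plod1, Plod2 and Plod3 were 11.2%, 46.4% and 42.4% of the family sum, and in AF vehicle they were 16.1%, 51.5% and 32.4%. Shares of Plod1 ran from 10.0% to 12.9% in NP vehicle and from 15.3% to 17.0% in AF vehicle and so did not overlap. The summed level was 128 ± 15.9 in NP vehicle and 159 ± 51.8 in AF vehicle (SD, n = 5 each).

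**Figure D2:**
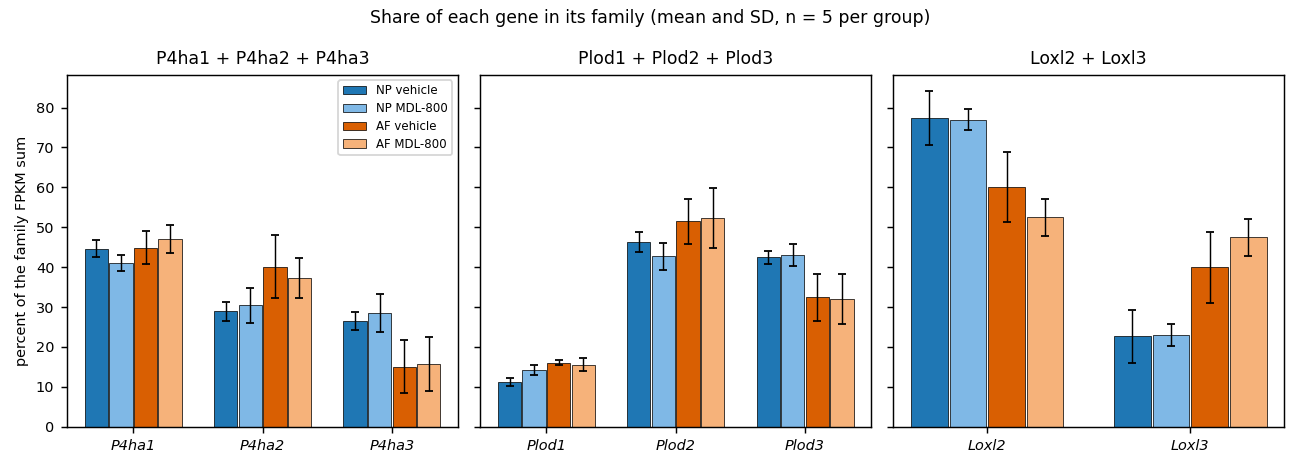
Percentage of the summed scaled FPKM of each enzyme family contributed by each gene (vertical axis), with the genes of a family on the horizontal axis and a bar for each group. Bars are means and whiskers SD (n = 5). P4ha3 and Plod3 take larger mean shares in NP than in AF, and Loxl2 takes 77.3% of its pair in NP vehicle and 60.1% in AF vehicle.

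Serpinh1 (chr7:99345376-99353239) was the member with the largest excess in AF. The NP vehicle libraries held 51.0, 44.3, 40.8, 40.7 and 51.2 scaled FPKM, and the AF vehicle libraries held 191, 84.5, 94.5, 74.2 and 106. Every AF library was above every NP library, and AF library 8 stood far above the rest. The means of 45.6 ± 5.21 and 110 ± 46.9 (SD, n = 5 each) gave a log2 difference of -1.18 (SE 0.22, limma adjusted p = 0.00104), so that AF held 2.26-fold more. In MDL-800 discs NP values were 53.7, 54.6, 61.2, 55.1 and 60.01 and AF values were 139, 111, 150, 165 and 140, a log2 difference of -1.28 (SE 0.10, adjusted p = 3.57e-06).

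Pcolce (chr5:137605103-137613784) had 96.0, 92.0, 80.1, 70.8 and 80.9 scaled FPKM in NP vehicle and 168, 107, 139, 154 and 102 in AF vehicle. The groups did not overlap, and the log2 difference was -0.65 (SE 0.15, limma adjusted p = 0.00419). In MDL-800 discs the NP libraries held 76.0 to 117 and the AF libraries 96.1 to 143, they overlapped, and the difference of -0.29 (SE 0.16, adjusted p = 0.135) did not pass. The difference between the treatments in this tissue contrast is the interaction tested further on, and it did not pass for Pcolce.

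Loxl2 (chr14:69609068-69695834), a lysyl oxidase-like enzyme that acts on collagen IV and fibrillar collagens, held 77.9, 69.7, 99.7, 102 and 101 in NP vehicle and 94.3, 47.6, 44.9, 48.7 and 27.3 in AF vehicle. AF library 8 lay among the NP libraries and the other 4 AF libraries lay below them. The log2 difference was 0.86 (SE 0.27, limma adjusted p = 0.0178). In MDL-800 discs NP held 90.5, 138, 99.8, 97.8 and 63.2 and AF held 50.5, 49.4, 26.7, 31.7 and 13.6, without overlap, and the log2 difference was 1.58 (SE 0.33, adjusted p = 0.00177). Loxl3, its close relative, showed no called difference, at -0.32 (95% interval -1.03 to 0.39) in vehicle and 0.0065 (-0.52 to 0.54) in MDL-800. It shares 535 exon nucleotides with Htra2 on the opposite strand.

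**Figure D3:**
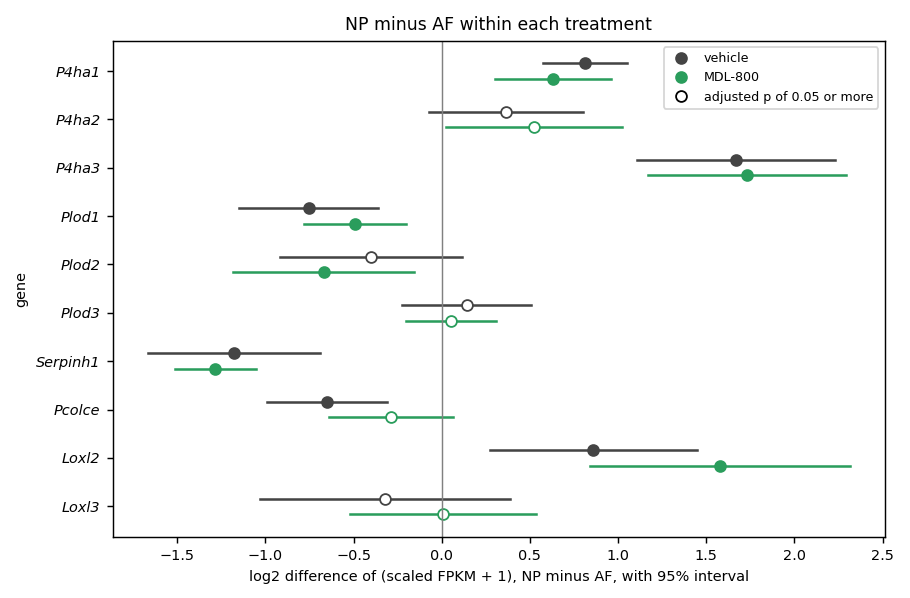
Log2 difference of (scaled FPKM + 1), NP minus AF, on the horizontal axis for each gene on the vertical axis, in vehicle (grey) and MDL-800 (green) discs. Points are estimates, bars are 95% intervals and filled points have adjusted p under 0.05. P4ha1, P4ha3 and Loxl2 lie right of 0 and Serpinh1 and Plod1 left of 0 under both treatments.

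In MDL-800 discs 3 members were higher in NP and 3 were lower, against 25.6% and 37.2% of all genes and 62.8% in either direction. With quantile normalization P4ha2 (0.64) was called and Plod1 (-0.30) was not, which made 4 higher and 2 lower, and all genes split into 6919 higher and 4288 lower in place of 4188 and 6102. P4ha1, P4ha3, Loxl2, Serpinh1 and Plod1 passed in both treatments, Pcolce passed in vehicle and Plod2 in MDL-800. Values did not overlap for 4 members, against 49.1% of all genes. The sign of the difference was shared by 9 of 10 members in the 2 tissue comparisons, which use different libraries, the exception being Loxl3. The count of members called in vehicle was 7 without AF library 8 and 7 without AF library 9, and was 6 when any other library was left out.

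Cell types other than disc cells also differed between the dissected tissues. All 9 bone markers were lower in NP under both treatments, and their summed scaled FPKM was 13.2 to 98.6 in NP vehicle and 269 to 1189 in AF vehicle. Bone cells also make collagen and its processing enzymes. Of the 9, Sp7, Phex, Dmp1, Sost and Mepe averaged under 1 in NP and all 9 reached 1 in AF. The 8 skeletal muscle markers summed to 11.1 to 1253 in NP vehicle and 999 to 8616 in AF vehicle, and the 7 neutrophil markers to 195 to 2972 and 6939 to 18132. The part of these cells in the tissue differences was not tested.

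The levels of the enzymes differed in order as well. FPKM is per length, so genes can be ranked within a group, but the length used for each gene is not given. For P4ha2 the longest transcript has 3060 nucleotides and all exons together have 6239. The order of genes at similar levels is therefore uncertain. In NP vehicle Loxl2 (90.0), P4ha1 (89.9) and Pcolce (84.0) led, and Plod1 (14.2) was lowest. Neighbours in that order had overlapping ranges down to Serpinh1, and only the steps from Serpinh1 to Loxl3 and from Loxl3 to Plod1 were clear of overlap. In AF vehicle Pcolce (134), Serpinh1 (110) and Plod2 (83.0) led and P4ha3 (17.3) was lowest, with every pair of neighbours overlapping. P4ha3 was thus 7th of 10 in NP vehicle and 10th in AF vehicle, and Serpinh1 was 8th and 2nd.

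In vehicle discs the coefficient of variation between libraries was larger in AF than in NP for all 10 members, and in MDL-800 discs for 9, all but Pcolce. AF vehicle library 8 held the highest value of its group for 9 of the 10 members, all but P4ha3, and its summed fibrillar collagens were 6957 scaled FPKM against 1151 to 2081 in the other 4 libraries. AF MDL-800 library 30 held the lowest value of its group for 7 members. It had the highest neutrophil (31504) and red cell (3222) marker sums of that group and the lowest cartilage (1613) and AF (3493) marker sums. Its bone marker sum of 2056 was the second highest of that group. In AF vehicle the coefficient of variation of P4ha1 was 11.4% and that of P4ha3 was 46.4%, against 10.3% and 11.9% in NP vehicle.

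Fibrillar collagens, the substrate of these enzymes, were summed for each library. The summed scaled FPKM of 9 fibrillar collagen genes was 309 ± 60.1 in vehicle NP and 423 ± 75.0 in MDL-800 NP, against 2765 ± 2369 in vehicle AF and 3217 ± 731 in MDL-800 AF (SD, n = 5 each). Of the 9, 4 were lower in NP than in AF in vehicle discs (Col1a1, Col1a2, Col3a1 and Col5a2) and 6 in MDL-800 discs, and none was higher. Of all genes tested, 33.9% were lower in vehicle and 37.2% in MDL-800 discs, and 21.8% and 25.6% were higher. The median difference of the 9 was -0.92 in vehicle and -0.88 in MDL-800 discs, against -0.083 and -0.084 for all genes. For every 1000 scaled FPKM of fibrillar collagen, NP vehicle libraries held 297 ± 42.2 of P4ha1 and AF vehicle libraries 26.0 ± 13.6 (SD, n = 5 each). The same ratio for Serpinh1 was 151 ± 22.1 and 49.4 ± 18.2, and for Plod1 it was 47.9 ± 12.1 and 11.7 ± 3.80 (SD, n = 5 each). All 10 members had NP ratios wholly above the AF ratios in both treatments. The ratio rises with any fall in the collagen sum, so this shows nothing particular to these genes.

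Serpinh1 was followed against the collagen sum across libraries, with log2 values centred on the group means. Within the 10 AF libraries Pearson's r was 0.87 (permutation p = 0.00517, adjusted over the 2 tissues 0.0103) and Spearman's rho was 0.78 (permutation p = 0.0107, adjusted 0.0215). Without AF vehicle libraries 8 and 9, the 2 farthest from the median collagen sum, r was 0.45 (permutation p = 0.269, adjusted 0.539), so the relation rests on those libraries. Within the 10 NP libraries r was 0.55 (permutation p = 0.101) and rho was 0.55 (permutation p = 0.105), and r was 0.20 (permutation p = 0.629) without NP MDL-800 library 19 and NP vehicle library 5.

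**Figure D4:**
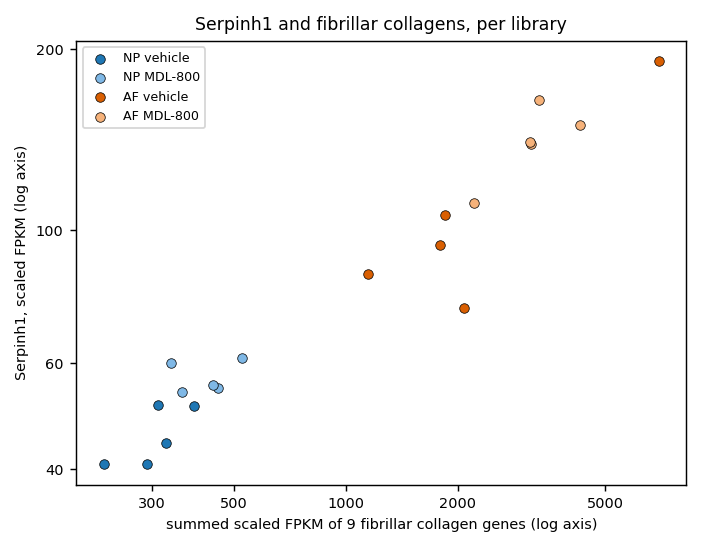
Serpinh1 in scaled FPKM (vertical log axis) against the summed scaled FPKM of 9 fibrillar collagen genes (horizontal log axis), a point for each of the 20 libraries. NP libraries lie at low values of both, and AF vehicle library 8 is the point at the upper right, at 6957 and 191.

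Of other collagen processing genes, a list of 29, 26 were tested. In vehicle discs 4 were higher in NP and 13 lower, where 21.8% and 33.9% of all genes were, and the median difference was -0.42 against -0.083 for all genes. The largest called differences downward were Lox, the founding lysyl oxidase (-4.27; 4.99 ± 1.87 in NP and 128 ± 76.3 in AF), P3h3, a prolyl 3-hydroxylase family member (-2.90), and Loxl1 (-2.38). Upward they were Fkbp14, an endoplasmic reticulum prolyl isomerase (0.98), P3h4 (0.69) and Crtap, a partner of prolyl 3-hydroxylase 1 (0.66). In MDL-800 discs 5 were higher and 12 lower with a median of -0.30, where 25.6% and 37.2% of all genes were higher and lower with a median of -0.084. The largest were Loxl4 (0.99), Fkbp14 (0.95) and Crtap (0.63) upward and Lox (-4.14), P3h3 (-2.90) and the collagen-inducing transcription factor Creb3l1 (-2.41) downward. Lysyl oxidases therefore lay on different sides, with Loxl2 at 90.0 and Lox at 4.99 scaled FPKM in NP vehicle, and 52.6 and 128 in AF vehicle.

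The hypoxia-responsive list was read beside the hydroxylases because of the background given above. All 15 tested genes were higher in NP than in AF in vehicle and in MDL-800 discs, where 21.8% and 25.6% of all genes were. Their median differences were 1.34 and 1.60, against -0.083 and -0.084 for all genes. Among the members that are textbook hypoxia targets, P4ha1 was higher in NP in both treatments, P4ha2 was not called in either and Plod2 was lower in NP in MDL-800 discs. P4ha3 had a larger difference than P4ha1 under both treatments (1.67 and 0.81, then 1.73 and 0.63). The part of low oxygen in the differences of the members was not tested.

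MDL-800 against vehicle was compared within each tissue, which asks whether long dosing altered these transcripts in old discs. In NP none of the 10 members passed, where 0.25% of all genes did, and 2 members had an unadjusted p under 0.05, where 14.1% of all genes did. These were Serpinh1 and Plod1, both with higher values under MDL-800 and both without overlap, against 4.5% of all genes without overlap. Serpinh1 was 40.7 to 51.2 in the vehicle libraries and 53.7 to 61.2 in the MDL-800 libraries, a log2 difference of 0.32 (SE 0.084, limma adjusted p = 0.115). Plod1 was 12.4 to 15.0 and 15.2 to 18.6, a log2 difference of 0.21 (SE 0.079, limma adjusted p = 0.252). The other 8 members had differences between -0.25 (Plod2) and 0.21 (Pcolce).

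The NP groups also differed in a property of the libraries. The slope of library deviations on transcript GC content, in log2 units per 10 percentage points of GC, was -0.285 to -0.0067 in the vehicle libraries and 0.023 to 0.088 in the MDL-800 libraries, without overlap. With that trend removed from each library the Serpinh1 difference was 0.18 (limma adjusted p = 0.518) and that of Plod1 was 0.15 (adjusted p = 0.477), while that of Plod3 went from -0.11 to -0.27 (adjusted p = 0.136). No member was called with the trend removed, and the other 7 had differences between -0.12 (Plod2) and 0.10 (Pcolce). The NP marker T was 1193 to 1701 under vehicle and 1780 to 2328 under MDL-800. Of the 9 NP markers 3 (T, Krt8 and Krt19) had groups that did not overlap, against 4.5% of all genes. Others did not rise: Krt18 averaged 177 under vehicle and 176 under MDL-800, and Cdh2 215 and 192. Differences of the 9 ran from -0.13 to 0.88 with a median of 0.092, against -0.033 for all genes, and none was called. The part of the NP cells in the differences of the members was not tested. As a share of the lysyl hydroxylase sum, Plod1 was 11.2% ± 1.06 under vehicle and 14.3% ± 1.19 under MDL-800 (SD, n = 5 each), with ranges of 10.0% to 12.9% and 12.4% to 15.6% that overlapped.

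In AF none of the 10 members passed between MDL-800 and vehicle, none had an unadjusted p under 0.05 and none was free of overlap. Of all genes, 0% passed, 1.65% had an unadjusted p under 0.05 and 0.226% did not overlap. The largest differences were 0.43 for Serpinh1 (95% interval -0.089 to 0.94) and -0.62 for Loxl2 (-1.48 to 0.23). When libraries were left out singly they ran from 0.31 to 0.64 for Serpinh1, the highest without AF vehicle library 8, and from -0.83 to -0.34 for Loxl2, which was -0.39 without AF vehicle library 8 and -0.34 without AF MDL-800 library 30. Intervals of this width do not show that the groups were alike. Serpinh1 averaged 110 ± 46.9 in vehicle and 141 ± 19.6 in MDL-800 (SD, n = 5 each). The bone marker sum was 269 to 1189 in AF vehicle and 872 to 2121 in AF MDL-800. With the mean log2(scaled FPKM + 1) of the bone markers as a covariate, the Serpinh1 difference was 0.018 (SE 0.24) and that of Loxl2 was -0.45. Under the same covariate other differences moved away from 0, to 0.51 for P4ha3, -0.26 for Plod3, -0.24 for Plod1 and -0.43 for Loxl3, and none was called. The part of bone cells in the AF differences was not tested.

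**Figure D5:**
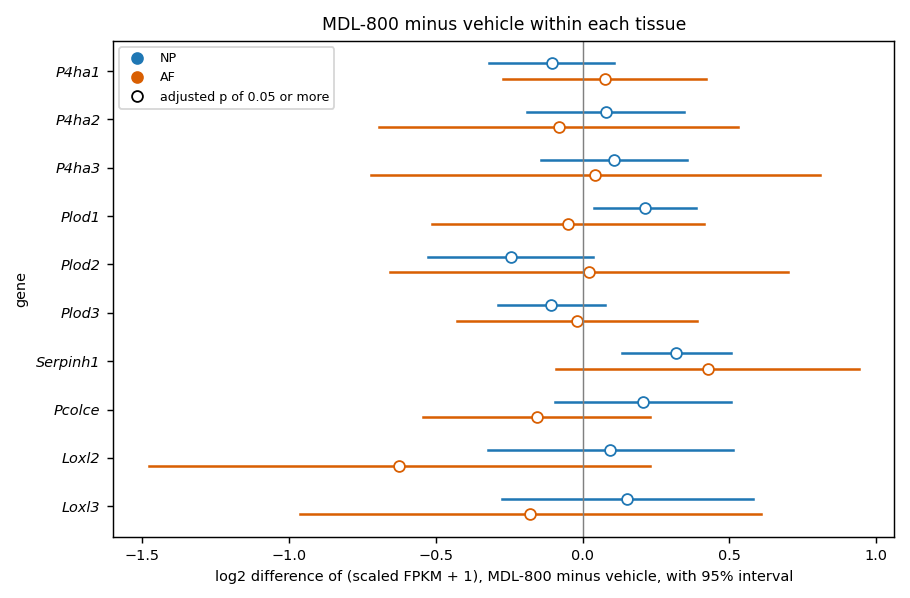
Log2 difference of (scaled FPKM + 1), MDL-800 minus vehicle, on the horizontal axis for each gene on the vertical axis, in NP (blue) and AF (orange). Points are estimates and bars 95% intervals, and all points are open because none had an adjusted p under 0.05. Intervals in AF are wider than in NP, and those of Serpinh1 and Plod1 in NP lie right of 0.

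The treatment effect in NP minus that in AF was tested in a fit of all 4 groups, and 0 of 10 members passed, as did 0% of all genes, of which 3.73% had an unadjusted p under 0.05. No member had an unadjusted p under 0.05, and the largest estimates were 0.72 for Loxl2 (95% interval -0.23 to 1.66) and 0.36 for Pcolce (-0.11 to 0.84). Among other collagen processing genes none passed in either tissue. In NP the smallest p upward belonged to Adamts2, a procollagen N-proteinase (0.48, adjusted p = 0.0698), and Fkbp10, a prolyl isomerase that serves lysyl hydroxylation (0.38, adjusted p = 0.0743). Downward they were Pcolce2 (-0.29, adjusted p = 0.241) and P3h2 (-0.17, adjusted p = 0.494). In AF they were Bmp1 (0.25) and Creb3l1 (0.34) upward and Atp7a (-0.11) and P3h4 (-0.19) downward, each with adjusted p of 1.

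Some members varied together from library to library within the groups. Over 20 libraries, with log2 values centred on the 4 group means, the gene with the highest Pearson r among 10715 expressed genes was itself a member for P4ha2 (Loxl3, r = 0.91) and for Loxl2 (P4ha2, r = 0.89). For Plod1 it was Col11a1 (r = 0.92), a fibrillar collagen, and for Plod3 it was Fkbp10 (r = 0.89). The others were Dpysl2 for P4ha1 (r = 0.91), Apol9a for P4ha3 (r = 0.96), Stk38l for Plod2 (r = 0.92), Smpd3 for Serpinh1 (r = 0.88), Chst3 for Loxl3 (r = 0.94) and Tmem100 for Pcolce (r = 0.77). Of the 45 pairs of members the lowest value was -0.57, between P4ha3 and Plod2. P4ha2, Loxl2 and Loxl3 were all highest of their group in AF vehicle library 8, AF MDL-800 library 25 and NP MDL-800 library 18. All were lowest of their group in AF MDL-800 library 30 and NP MDL-800 library 22. How far the r values rest on single libraries or on the wider AF spread was not tested. The points share library depth and tissue make-up, and the values are given as a description.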

How the data were processed

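RNA-seq of 20 disc libraries was used. Per the labels' protocols these were stranded total RNA libraries after ribosomal depletion. The authors deposited FPKM values for 51789 genes. STAR 2.7.11b and the mm10 build are named in the submitters' processing notes. The counting program and annotation are not given in the sources used here. Estimated depth was 12.8 M to 22.2 M fragments (M, the prefix mega), from single-exon genes, with 82.8% to 88.1% of low values on whole-fragment steps (tolerance 0.2 of a step).

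FPKM were divided by a median-ratio factor over 11308 genes (0.933 to 1.06) and tested as log2(value + 1). Genes at 1 or more in at least 5 libraries (16383) entered limma 3.58.1 in R 4.3.3, with a mean-variance trend, 2 groups per fit, two-sided, Benjamini-Hochberg adjustment, and a call at adjusted p under 0.05. The interaction used all 4 groups. Correlations used 100000 permutations (scipy 1.17.1). Coordinates come from GENCODE M21 (mm10) and promoters from RefSeq (GRCm38.p6). When 200 of the 16383 genes were given a simulated log2 change of 1, limma recovered 71% for the vehicle tissue comparison, 80% for treatment in NP, 59% in AF and 54.5% for the interaction. The simulated noise was normal and independent between genes, and far fewer genes changed than the 55.7% called between vehicle tissues. Every treatment and interaction estimate of a member was smaller than 1 in size. These rates therefore do not say how often differences of the members' size would be found.

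Groups come from the titles. The labels do not say that libraries are separate animals, so p-values measure only the spread between these samples. The members, gene lists and tests were chosen with earlier results of these data known. All members are named. From the list of other processing genes, the 3 largest called changes in each direction are named per tissue comparison and the 2 smallest p in each direction per treatment comparison, along with the single most alike gene per member. Alternatives were a pseudocount of 0.1, no filter, no scaling, quantile normalization, GC trend removal, no mean-variance trend, all groups in the fit, bone markers as a covariate, and leaving out each library. No set test was run.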

Additional observations from a re-analysis of the deposited data

Results flagged for a closer look

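The 40 combinations of member and group were searched for a library far from the other 4 of its group, and 3 were found, where chance flags about 1 in 20. Plod1 was low in NP vehicle library 2, at 12.4 scaled FPKM against 14.4 to 15.0 in the others. Plod1 was also low in AF MDL-800 library 30, at 16.5 against 24.9 to 27.4. Serpinh1 was high in AF vehicle library 8, at 191 against 74.2 to 106, and that library had the highest value of its group for 9 of the 10 members.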

How the results depend on the processing

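Over 990 recomputed differences of the members, 935 kept their direction and side of the threshold, 41 changed sign, 6 gained a call and 8 lost one. Every sign change was in a difference that was not called. The 2 treatment comparisons and the interaction had 0 members called under every alternative, and the tissue comparison had 6 or 7 in vehicle and 4 to 7 in MDL-800 discs. Without scaling, the NP minus AF difference in MDL-800 discs was -0.028 for Plod3 and -0.075 for Loxl3. With bone markers as a covariate, the AF treatment difference of Plod2 was -0.19, and the interaction was -0.22 for P4ha3, 0.039 for Plod3 and 0.18 for Serpinh1, and with the GC trend removed the interaction of P4ha3 was -0.012. The Serpinh1 relation with collagens in AF was 0.45 without the libraries farthest from the median.

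When libraries were left out singly, signs changed within these ranges. In MDL-800 discs NP minus AF ran from -0.18 to 0.16 for Loxl3 and from -0.037 to 0.14 for Plod3. The NP treatment difference ran from -0.041 to 0.24 for Loxl2 and from -0.020 to 0.14 for P4ha2. The AF treatment difference ran from -0.34 to 0.090 for Loxl3, -0.21 to 0.11 for P4ha2, -0.17 to 0.25 for P4ha3, -0.17 to 0.12 for Plod1, -0.15 to 0.22 for Plod2 and -0.14 to 0.11 for Plod3. The interaction ran from -0.032 to 0.28 for P4ha2, -0.14 to 0.28 for P4ha3, -0.22 to 0.037 for Plod3 and -0.33 to 0.013 for Serpinh1. The cause of these changes was not tested.

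The column headers carry a number shared between tissues whose meaning is not stated. In vehicle every number occurs in both tissues. Deviations of same-numbered libraries correlated at -0.178 to 0.285, and those of differently numbered libraries at -0.372 to 0.327. Such correlations between different tissues cannot show whether same-numbered libraries came from the same animal. The main tests treat the tissues as unpaired, and whether the numbers mark a pairing is not known. A replicate block on that number, chosen after seeing the data, left 6 members called in vehicle. In MDL-800 discs, where 3 numbers are shared, it left 4 called, with P4ha1 at 0.68 (limma adjusted p = 0.0734), Plod1 at -0.47 (adjusted p = 0.125) and Pcolce at 0.053. Depth was estimated from the values, and the wide AF spread limits what the treatment comparison in AF could show.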
